A study of Mus musculus with 1 sample.

Results

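F13a1+ progenitors were 605 of the 7645 cells that passed the cell filter in 1 single-cell library of mouse bone marrow, a share of 7.91% (95% Clopper-Pearson interval 7.32 to 8.54). The library held Lineage- cKit+ cells, the fraction of the marrow that keeps stem and progenitor cells and loses most mature cells, and 8817 barcodes were deposited in all. A cell was counted as an F13a1+ progenitor when it had 1 or more transcripts of F13a1 and 1 or more of Ms4a6c or Ly86. It also had 0 transcripts of Fn1, Tgfbi, Trem2, Flt3 and H2-Aa, and fewer than 3 of Cebpe. The cells were thus selected on the measured values of these 9 genes, whose levels are given as a description and support nothing. They had been proposed as early monocyte progenitor-like cells. A transcript here means a unique molecular identifier (UMI), the tag that lets every captured RNA molecule be counted a single time.

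The mouse line was C57BL/6, and the donor cells were CD45.2(+) with floxed Brd9 alleles (Brd9fl/fl). By the study's methods the control cells carried no Mx1-Cre, so that Brd9 was not deleted. Polyinosinic:polycytidylic acid (pIpC), which induces interferon, had been given at 20 mg/kg every other day for 3 doses, and the cells were prepared 8 weeks after pIpC. Every cell described here therefore shares the floxed alleles and the pIpC treatment. The labels name CD45.1(+) CD45.2(-) transplant recipients, injected after bone marrow transplantation, whereas the series' design text describes primary mice injected 4 weeks after birth, and the files do not settle which applies. The matched library from Brd9-deleted marrow was not analysed here. With 1 library there is no replicate, so no test was made, and every interval is a 95% interval for counting error only.

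Monocytes arise in the marrow from granulocyte-monocyte progenitors and from monocyte-dendritic progenitors, through a committed progenitor that carries Ly6C and the receptor for macrophage colony-stimulating factor. Irf8 and Klf4 are transcription factors of the monocyte branch. Gfi1 and Cebpe are factors of the neutrophil branch, and the proteases and peroxidase of the primary (azurophil) granule are made at the promyelocyte stage. Granulocyte-monocyte progenitors and early monocyte progenitors both hold transcripts of these granule proteins.

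Of the 9 genes that chose the cells, F13a1 encodes the A subunit of coagulation factor XIII, a transglutaminase of monocytes and macrophages. Ms4a6c is a membrane protein of the MS4A family, and Ly86 (MD-1) is the secreted partner of the Toll-like receptor homologue Cd180. Ly6c2, which encodes the monocyte surface antigen Ly6C, was the 1 proposed marker that the choice did not use. In the GRCm38 build with GENCODE M21 annotation, F13a1 lies at chr13:36867178-37050244 on the minus strand and Ly86 at chr13:37345208-37419036 on the plus strand, with 295 kb between their starts. Ms4a6c lies at chr19:11469366-11482192 on the plus strand, and Ly6c2 at chr15:75108158-75111970 on the minus strand. Irf8 lies at chr8:120736358-120756694 on the plus strand, where Gm20388 overlaps it on the same strand. Elane, which encodes neutrophil elastase, lies at chr10:79886247-79888215 on the plus strand, 3.07 kb downstream of Prtn3, which encodes proteinase 3. All are annotated as protein-coding.

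The stretches that precede the annotated starts of 4 of these genes are shown, since F13a1 was higher and Elane lower in cells with more Irf8, as given further on, and Ly6c2 was the independent marker. Each is 150 bases read 5′ to 3′ on the gene's strand from the RefSeq promoter table (GRCm38.p6), and overlaps no annotated exon. Capitals mark the letters GAGGAA, the core that the myeloid factor PU.1 prefers, where they occur.
F13a1 (chr13:37050245-37050394, minus strand): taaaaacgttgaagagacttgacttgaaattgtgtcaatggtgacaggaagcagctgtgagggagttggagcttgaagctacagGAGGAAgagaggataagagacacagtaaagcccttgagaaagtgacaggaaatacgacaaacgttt
Ly6c2 (chr15:75111972-75112121, minus strand): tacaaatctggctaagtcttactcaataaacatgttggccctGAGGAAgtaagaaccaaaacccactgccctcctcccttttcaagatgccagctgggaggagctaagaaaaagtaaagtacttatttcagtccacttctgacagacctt
Irf8 (chr8:120736208-120736357, plus strand): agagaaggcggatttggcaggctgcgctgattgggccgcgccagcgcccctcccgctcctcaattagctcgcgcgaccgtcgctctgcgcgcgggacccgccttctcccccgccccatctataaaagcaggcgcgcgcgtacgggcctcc
Elane (chr10:79886097-79886246, plus strand): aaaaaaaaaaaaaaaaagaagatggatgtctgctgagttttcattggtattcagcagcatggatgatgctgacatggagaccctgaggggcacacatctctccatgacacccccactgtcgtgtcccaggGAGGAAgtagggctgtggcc
GAGGAA, searched on both strands, was present once in the F13a1, Ly6c2 and Elane stretches and absent from that of Irf8. It was also absent from those of Ms4a6c (150 bases) and Ly86 (113 bases), which were searched but are not shown. Of 32544 stretches of 150 bases before RefSeq starts, 14.5% held it. TTGCNNAA for C/EBP (5.48% of stretches), the interferon regulatory factor motif of 2 copies of GAAA with 2 free bases between them (1.60%) and TGTGGT for RUNX factors (8.30%) were in none of the 4. A match is a run of letters and was not tested as a binding site.

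The 605 cells held 13480006 UMIs, with a median of 21995 a cell (lowest 3299, highest 49637), against a median of 18213.5 in the other 7040 filtered cells. Levels are given as CPM, the UMIs of a gene in each 1000000 UMIs summed over the cells of a group. The 14 later monocyte cells met the same choice but held Fn1 and Tgfbi, so values against them rest on few cells. The 495 Flt3 Csf1r cells held 1 or more UMIs of both those genes and none of Siglech or Dntt, and the 69 Mpo progenitors held 10 or more UMIs of Mpo and none of F13a1, Ms4a6c, Ly86, Fn1, Tgfbi, Flt3, Gata1 or Cebpe. The 334 early Cebpe cells held 3 or more UMIs of Cebpe, fewer than 10 of S100a8 and none of F13a1, and 1089 erythroid cells, with Klf1 and Gata1, gave the background of free RNA. The Mpo progenitors were high in basophil and mast cell genes, with Prss34 at 4303 CPM, and the early Cebpe cells in the eosinophil gene Prg2, at 2370 CPM. Both references therefore hold cells of other granulocyte lineages.

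Among the F13a1+ progenitors, 477 (78.8%) had both Ms4a6c and Ly86, 124 had Ms4a6c without Ly86 and 4 had Ly86 without Ms4a6c. F13a1 was at 1 UMI in 101 cells, had a median of 6 and reached 43. Outside the choice, 597 cells met every condition but had no F13a1 UMI, and these were shallower (median 14693 UMIs). A further 402 failed on Flt3 alone, 180 of them on a single UMI, 243 failed on Trem2 alone, 124 of them on a single UMI, and 147 failed on Cebpe alone, 45 of them at 3 UMIs. The cells that failed on Flt3 alone had 383 CPM of Ly6c2, 811 of Irf8 and 1451 of Elane, and those that failed on Trem2 alone had 1490, 584 and 4345. The 127 that failed on Tgfbi alone, 91 of them on a single UMI, had 1355, 525 and 4895.

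A minority of the cells carried genes of another lineage. In all, 84 of the 605 (13.9%, 11.2 to 16.9) did so. Of these, 30 had 5 or more UMIs of the later neutrophil gene S100a8, and 23 had 5 or more of the basophil protease gene Prss34 together with Cpa3. The erythroid factor genes Klf1 (3 or more UMIs) and Gata1 were held by 21, the platelet gene Pf4 (5 or more) by 13, and the eosinophil gene Prg2 (5 or more) by 2, and some cells counted under more than 1 heading. Their F13a1 median was 2 UMIs, and 38 of the 84 had a single F13a1 UMI. Doublet calls fell on 23 of the 84 and on 8 of the other 521. Prss34 stood at 593 CPM (580 to 606) over all 605 cells and at 5.95 CPM (4.63 to 7.53) over the 521, a difference that the removal itself fixes since Prss34 was used for it. Results are given with all 605 cells, and beside the 521 where these differ.

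Ly6c2 was found in most F13a1+ progenitors. It had a median of 20 UMIs a cell (lowest 0, highest 82) and at least 1 UMI in 557 of 605 cells. Its level was 958 CPM (942 to 975), against 416 in the other filtered cells, a ratio of 2.30 (2.26 to 2.35). After each cell had been thinned to 5000 UMIs, which left out 3 shallower cells, 84.9% of 602 F13a1+ progenitors had a Ly6c2 UMI, compared with 7.53% of the erythroid cells (unthinned median depths 21995 and 33888), 69.2% of the Flt3 Csf1r cells and 58.4% of the early Cebpe cells. The paralogue Ly6c1, whose start lies 63.1 kb from that of Ly6c2, had 1 UMI in each of 12 cells and none in the rest. Reads that cannot be told between the paralogues make both values uncertain. Ly6c2 marks monocytes and their progenitors. The genes with the highest ratios, given further on, include Mpo, Prtn3 and Elane, which granulocyte-monocyte progenitors also hold. The cells are therefore called by the gene that chose them.

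**Figure D1:**
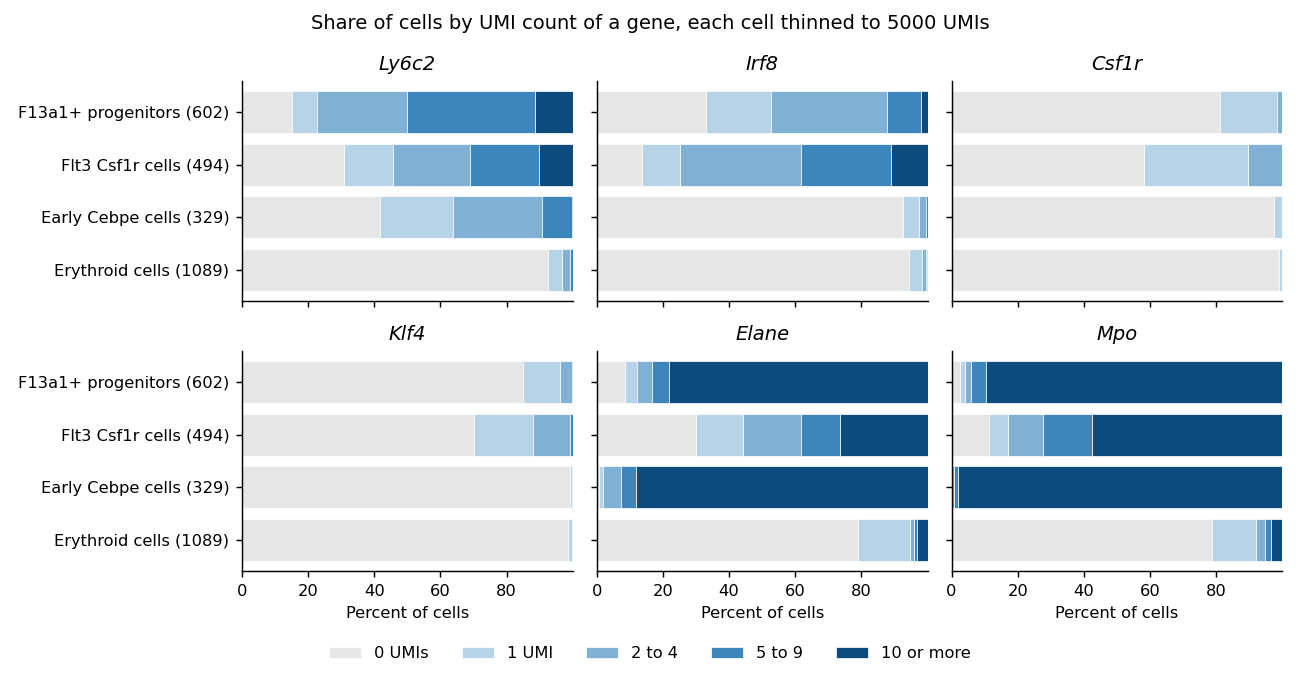
Share of cells (x axis, percent) by UMI class of 6 genes in 4 groups of cells (y axis, number of cells in parentheses), each cell thinned to 5000 UMIs. Ly6c2 was found in 84.9% of F13a1+ progenitors and 7.53% of erythroid cells, and Irf8 in 66.9% and 5.60%.

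Transcripts of the primary granule were abundant in the F13a1+ progenitors. Elane had a median of 124 UMIs a cell (lowest 0, highest 499), Prtn3 of 140 (0 to 476), Mpo, the peroxidase of the granule, of 121 (0 to 276) and Ctsg, which encodes cathepsin G, of 79 (0 to 313). The Elane level was 6190 CPM (6148 to 6232), which was 2.26 times that of the other filtered cells (2.24 to 2.27) and 3.91 times that of the Flt3 Csf1r cells (3.85 to 3.98). The early Cebpe cells stood above the F13a1+ progenitors, at 9408 CPM of Elane and 6919 of Mpo. Erythroid cells held 205 CPM of Elane. After thinning, 860 of the 1089 erythroid cells had no Elane UMI and 35 had 10 or more. How much of the 205 CPM was free RNA was not tested.

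Against the other filtered cells, 13470 genes had 50 or more UMIs in the groups together, of which 125 (0.928%) were 2-fold or more higher in the F13a1+ progenitors and 2365 (17.6%) were at 0.5 times or less. The median ratio over all these genes was 0.839. Of the 12 primary granule genes, 4 (Mpo, Elane, Prtn3 and Ctsg) passed 2-fold, none was at 0.5 times or less, and the interval lay above 1 for all 12, as it did for 1974 of the 13470 genes, with a median ratio of 1.82. The other members of the list included Ms4a3, a marker of granulocyte-monocyte progenitors, at 875 CPM and a ratio of 1.95 (1.91 to 1.98), and Prss57, a further granule protease, at a ratio of 1.83 (1.75 to 1.92). Against the Flt3 Csf1r cells, 6 of the 12 passed 2-fold (background 1.11%), with a median ratio of 1.96. Against the Mpo progenitors, 4.51% of 9486 genes were 2-fold or more higher and 7.78% at 0.5 times or less. None of the 12 passed 2-fold there and the median ratio was 1.05, while 11 of 23 monocyte effector genes were 2-fold or more higher. The Mpo progenitors were chosen for Mpo, a gene of this list, and for the lack of F13a1, Ms4a6c and Ly86. How far that set these values was not tested.

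Among genes at 50 CPM or more, the 15 with the highest ratio over the other cells (1 CPM added to both levels for the ranking) were Slpi, Mpo, Dmkn, Mgst1, Ly6c2, Alas1, Hp, Prtn3, Elane, BC035044, Hk3, Anxa3, Plac8, Fcgr3 and Tfec. Slpi, a secreted inhibitor of elastase and cathepsin G, stood at 546 CPM against 228, a ratio of 2.39 (2.33 to 2.45). Alas1, the first enzyme of haem synthesis outside the erythroid lineage, had a ratio of 2.28 (2.20 to 2.37), and Hp, which encodes haptoglobin, one of 2.27 (2.20 to 2.35). Fcgr3, a receptor for immunoglobulin G, stood at 111 CPM against 52.5, and Tfec, a factor of the myeloid lineage, at 53.0 against 24.8. All 15 ratios lay between 2.10 and 2.39. Among cells of 10000 to 30000 UMIs alone, 36 genes and not 125 were 2-fold or more higher, and the ratio was 1.84 for Ly6c2, 1.77 for Elane and 1.91 for Slpi. The passing of 2-fold thus depended on the window of cells used, while the direction of these 3 did not. That window kept 4538 of the 7040 other filtered cells, which include erythroid cells with a median of 33888 UMIs. Depth and the make-up of the reference cannot be told apart here.

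The lowest genes included those of plasma cells, antigen presentation, platelets and eosinophils. Igkc and Jchain, of plasma cells, were at 12.2 and 0.519 CPM. Cd74, the invariant chain of major histocompatibility complex class II, was at 2.60 CPM against 213, and H2-Eb1 at 1.11 against 59.5. Cells with H2-Aa, a class II gene, had been left out by the choice, and the 67 cells left out on H2-Aa alone had 739 CPM of Cd74. How far the choice set these low levels was not tested. Pf4 was at 49.6 CPM against 480 (ratio 0.103) and Prg2 at 15.7 against 156 (0.101).

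**Figure D2:**
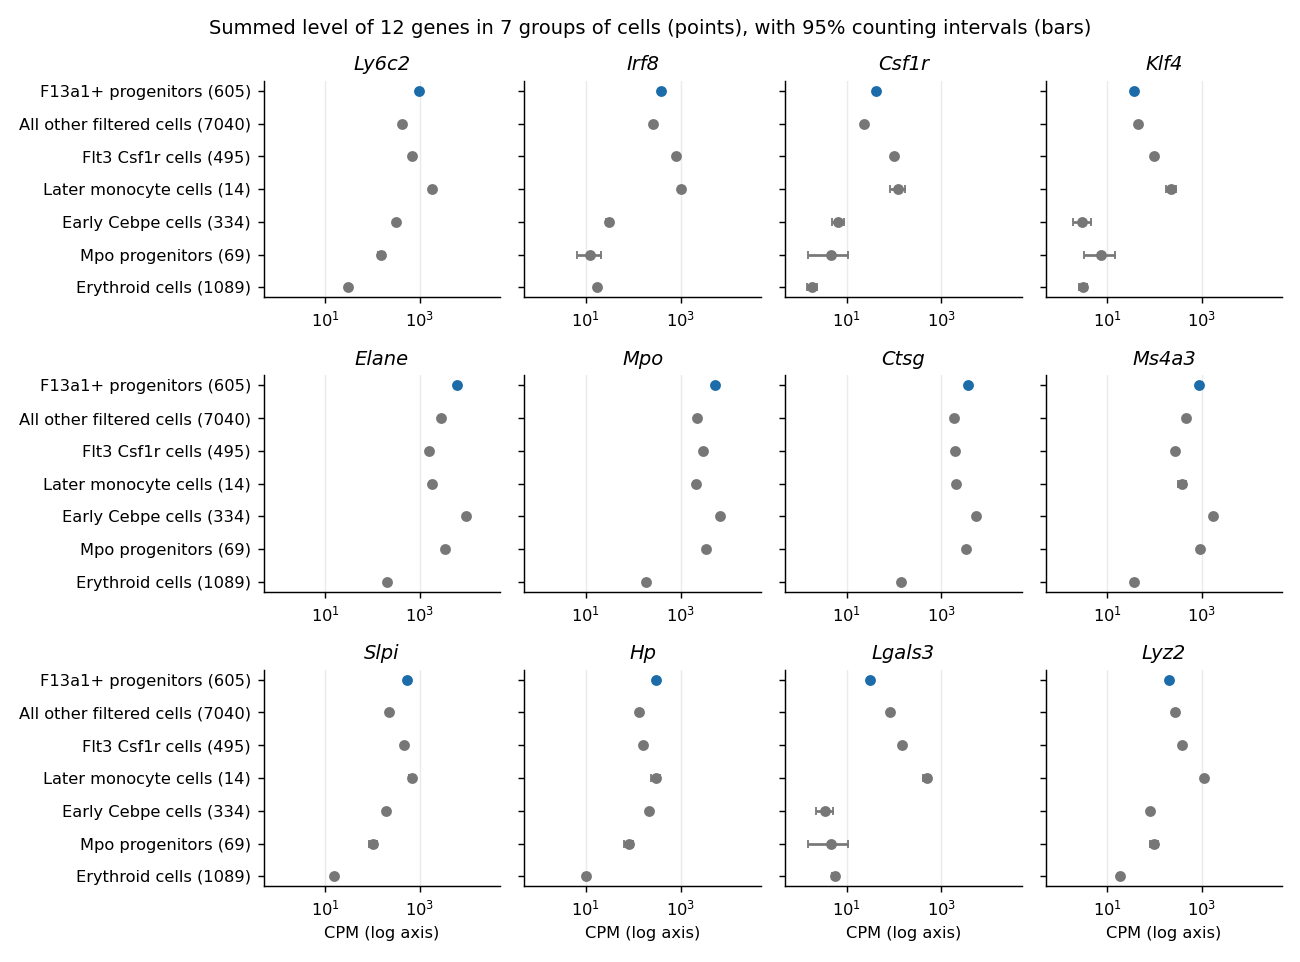
CPM (x axis, log scale) of 12 genes in 7 groups of cells (y axis, number of cells in parentheses), with 95% Poisson intervals as bars. F13a1+ progenitors (blue) lay between Flt3 Csf1r cells and early Cebpe cells for Irf8, Csf1r, Klf4, Elane, Mpo, Ctsg, Ms4a3, Lgals3 and Lyz2.

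The transcription factors of the monocyte branch were present at uneven levels. Irf8 had a median of 7 UMIs a cell (lowest 0, highest 53) and was found in 532 of 605 cells. Its level of 382 CPM (371 to 392) lay between those of the early Cebpe cells (30.7) and the Flt3 Csf1r cells (804) and was 1.43 times that of the other cells (1.39 to 1.47). Klf4 was sparse, with a median of 0 UMIs (highest 14) and at least 1 in 194 cells, and at 37.4 CPM it was below the Flt3 Csf1r cells (97.8). Its ratio to the other filtered cells was 0.839 (0.764 to 0.918), but 1.03 for cells chosen with both Ms4a6c and Ly86 and 2.26 when the choice was made on thinned cells, so its direction there depended on the choice. Spi1, which encodes PU.1, stood at 213 CPM with a ratio of 1.55 (1.49 to 1.61) over the other cells, Cebpa at 64.2 with 1.55 (1.44 to 1.66), and Zeb2, which acts in monocyte and dendritic cell development, at 234 with 1.18 (1.13 to 1.22). Maf, of macrophages, was at 0.371 CPM. Of the 18 listed factors, 1 (Tfec) was 2-fold or more higher than in the other cells and 6 were at 0.5 times or less, which were Maf, Nr4a1, Egr1, Id2, Jun and Bhlhe40, and the median ratio was 0.842, beside 0.839 for all genes.

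Most genes of the monocyte receptor list, which includes receptors for immunoglobulin and the adhesion gene Emb, had a higher level than in the other cells. Csf1r, the receptor for macrophage colony-stimulating factor, was found in 334 of 605 cells with a median of 1 UMI (highest 6), at 41.1 CPM (37.7 to 44.7) and a ratio of 1.74 (1.59 to 1.91). In thinned cells 18.8% held a Csf1r UMI, against 1.10% of erythroid cells and 2.43% of early Cebpe cells. Its 101 CPM in Flt3 Csf1r cells is set by how those were chosen. Ccr2, the chemokine receptor by which monocytes leave the marrow, was at 68.9 CPM against 61.9 in the other cells and 177 in the Flt3 Csf1r cells. Emb, which encodes the adhesion protein embigin, was at 429 CPM, a ratio of 2.06 (2.01 to 2.12). Of 17 measured receptors of the list, Emb and Fcgr3 passed 2-fold, none was at 0.5 times or less, 14 had an interval above 1 (1974 of all 13470 genes), and the median ratio was 1.35 (all genes 0.839, with 0.928% past 2-fold). Against the Flt3 Csf1r cells, 10 of 17 had an interval below 1 and the median was 0.795, beside 3419 of 10407 and 0.915 for all genes.

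Cells with Csf1r were not a set without granule transcripts. Of the 334 cells with a Csf1r UMI, 284 (85.0%) also held 20 or more UMIs of Elane, as did 80.8% of the cells without Csf1r. These shares are of unthinned cells. In the 602 thinned cells, Spearman's rho of Csf1r with Elane was -0.21. Both Irf8 and 20 or more UMIs of Elane were held by 458 of the 605 cells (75.7%). After thinning, 97.3% of F13a1+ progenitors and 21.3% of erythroid cells had a Mpo UMI.

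Genes of the mature monocyte were lower than in the later monocyte cells and the Flt3 Csf1r cells, while as a list they were not lower than in the other filtered cells. Against the other filtered cells, 10 of the 23 measured genes of monocyte effectors and the lysosome had an interval above 1 and 11 below, with a median of 1.03 (all genes 0.839). Against the 14 later monocyte cells, 9321 genes could be compared, with 1204 (12.9%) at 2-fold or more and 689 (7.39%) at 0.5 times or less in the F13a1+ progenitors. Of the 23 effector genes, 13 were at 0.5 times or less and none was 2-fold higher, with a median ratio of 0.382 beside 1.02 for all genes. Lgals3, which encodes galectin-3, was at 31.4 CPM (28.5 to 34.5) in the F13a1+ progenitors and 490 in the later monocyte cells, S100a4 at 30.9 and 413, and Lyz2, which encodes lysozyme, at 200 and 1107. Against the Flt3 Csf1r cells, 9 of 23 were at 0.5 times or less (background 3.38%), including Lgals3 at a ratio of 0.208 (0.186 to 0.231), S100a4 at 0.206 (0.185 to 0.230) and Ahnak at 0.183 (0.160 to 0.209). Plac8 and Ly6c2 were the exceptions, at ratios of 1.28 (1.26 to 1.30) and 1.39 (1.35 to 1.43). The choice left out cells with Fn1, Tgfbi or Trem2, which were not left out of the Flt3 Csf1r cells. Cells that failed on Trem2 alone had 149 CPM of Lgals3 and 88.2 of S100a4. Those that failed on Flt3 alone had 49.6 and 82.9. How far the choice set these ratios was not tested.

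The subunits of the phagocyte NADPH oxidase, which makes superoxide, were each above the other filtered cells. Cybb, the catalytic subunit, was at 52.6 CPM against 27.6 (ratio 1.91, 1.76 to 2.07), and Ncf1 and Ncf4, of the cytosolic complex, had ratios of 1.69 (1.58 to 1.79) and 1.61 (1.51 to 1.71). None of the 6 genes passed 2-fold, the interval lay above 1 for all 6 (1974 of all 13470 genes), and the median was 1.51. Against the Flt3 Csf1r cells none of the 6 had an interval above 1 and the median was 0.914 (all genes 0.915), and against the later monocyte cells 5 of 6 had an interval below 1, with a median of 0.618. Of the 11 measured genes around the Toll-like receptors, none passed 2-fold either way. Cd180, the receptor that Ly86 accompanies, was at 9.27 CPM, 0.726 times the other cells (0.601 to 0.871), and Cd14 at 5.64 CPM, 1.94 times (1.49 to 2.48).

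Neutrophil genes went both ways. Of the 13 measured, Hp passed 2-fold, S100a8, S100a9 and Camp were at 0.5 times or less, and the median ratio was 1.22. Cells with 3 or more Cebpe UMIs had been left out by the choice. The 147 cells left out on Cebpe alone had 596 CPM of S100a8, against 66.4 in the F13a1+ progenitors. How far the choice set the low levels was not tested. Csf3r, the receptor for granulocyte colony-stimulating factor, had a ratio of 1.59 (1.42 to 1.77). Gfi1 was at 19.1 CPM, against 61.4 in early Cebpe cells, which were chosen on Cebpe. Of the secondary granule genes, Ltf had 1 UMI in all 605 cells, Camp 3 and Ngp none, whereas Lcn2 was found in 193 cells (31.9%, at most 6 UMIs) at 22.9 CPM against 12.6 in the other filtered cells. Ngp at 0 of 605 cells allows a summed level of up to 0.223 CPM.

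Most lists of other cell types were below the other filtered cells. The macrophage genes C1qa, C1qb, C1qc, Cd5l and Marco, of 9 listed, had no UMI, while Adgre1 was found in 40 cells, Vcam1 in 41, Cd163 in 30 and Mrc1 in 3. Of the 6 macrophage genes measured, 4 were at 0.5 times or less of the other cells and Adgre1 had an interval above 1 (ratio 1.93, 1.37 to 2.65). Of 14 genes of stem and multipotent cells, 9 were at 0.5 times or less of the other cells, such as Hlf at 5.71 CPM against 48.9 and Mecom at 1.11 against 16.6, while Cd34, retained by early myeloid progenitors, had a ratio of 1.46 (1.39 to 1.53). Kit, by which the cells were sorted, was at 60.5 CPM against 90.8. Of 17 dendritic genes 14 were at 0.5 times or less, and of 12 erythroid and 8 megakaryocyte genes all were, beside 17.6% of all genes. Of 9 basophil, mast cell and eosinophil genes 3 were, with a median ratio of 0.554. The summed level of that list was 1110 CPM, against 108 in the erythroid cells, the background of free RNA. That of the stem and multipotent list was 556 against 219. These sums do not hold for each gene, as Prss34 alone gave 593 CPM of the first, and Cd34 148 of the second. Whether the other genes stood above free RNA was not tested.

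Genes of the cell cycle stayed within 2-fold of the other filtered cells, and most were lower. None of 18 S phase and none of 18 G2 and M phase genes passed 2-fold either way, with median ratios of 0.871 and 0.744 (all genes 0.839). The interval lay below 1 for 14 and 15 of them (6507 of all 13470 genes) and above 1 for 2 and 0. Against the Flt3 Csf1r cells it lay below 1 for 14 and 13 (3419 of 10407 genes). Mki67 was at 222 CPM against 398 in the other cells (ratio 0.559, 0.538 to 0.579). The erythroid cells, at 757 CPM of Mki67, are among those other cells. Brd9, whose alleles were floxed but not deleted, was at 30.9 CPM against 30.2 (ratio 1.02, 0.924 to 1.13). None of the 10 genes of the non-canonical BAF complex and Ctcf passed 2-fold. Of 14 interferon response genes, 7 were at 0.5 times or less (17.6% of all genes), with a median of 0.508 (all genes 0.839), in cells taken 8 weeks after the pIpC, and Irf7 was at 1.41 CPM against 5.46.

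**Figure D3:**
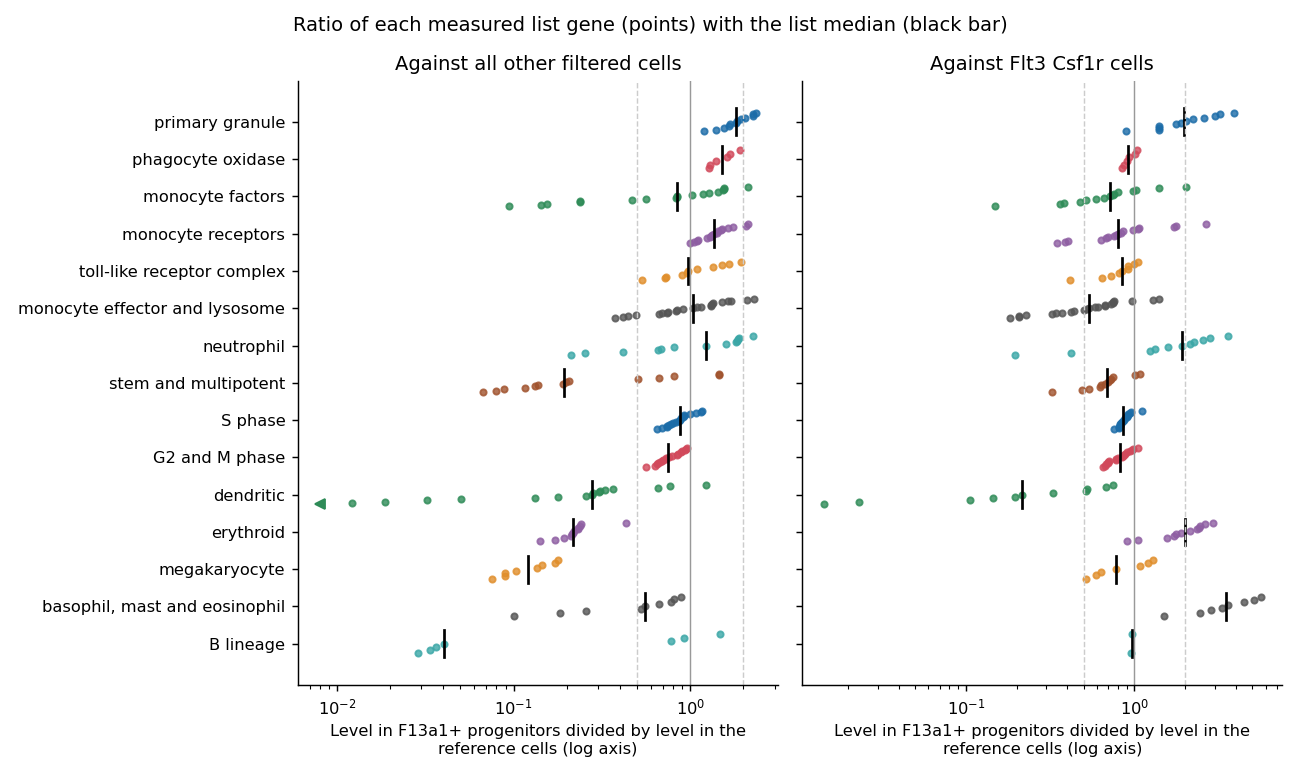
Ratio of the level in F13a1+ progenitors to that in 2 references (x axis, log scale) for each gene with 50 or more UMIs in 15 lists (y axis), without the genes of the choice; black bars are list medians, dashed lines 0.5 and 2, and the triangle is Xcr1, at 0 UMIs. Primary granule genes lay to the right in both panels (medians 1.82 and 1.96), and monocyte effector genes to the left of Flt3 Csf1r cells (0.537).

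Basophil and mast cell genes were higher than in the Flt3 Csf1r cells, and few cells held most of their UMIs. Over all 605 cells, Prss34 had a ratio of 5.59 to the Flt3 Csf1r cells (5.27 to 5.94) and Mcpt8, a basophil protease, one of 3.32 (3.11 to 3.55). Cells with 5 or more Prss34 UMIs and Cpa3 were among the 84 with genes of another lineage. These were left out of the F13a1+ progenitors alone, so the ratios without them (0.0561 for Prss34 and 0.378 for Mcpt8) are set in whole or in part by that removal. The 10 cells with most Prss34 held 67.0% of its UMIs.

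The F13a1+ progenitors were not uniform, and Irf8, which the choice did not use, ordered them. In cells thinned to 5000 UMIs, 199 had no Irf8 UMI, 218 had 1 to 2, 138 had 3 to 5 and 47 had 6 to 20. Over these ranges Klf4 stood at 6.18 (4.14 to 8.87), 29.3, 67.0 and 155 CPM (129 to 184). Csf1r stood at 23.2 (19.1 to 28.0), 38.9, 58.6 and 92.6 CPM (73.0 to 116), and Ccr2 at 36.4, 71.8, 91.3 and 156 CPM. Psap, the precursor of the lysosomal saposins, went from 99.9 to 579 CPM and Lgals3 from 5.75 to 177. All 5 genes stood higher in each range than in the one below it.

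Elane, Ctsg, Ms4a3, Nkg7 and Gfi1 took the opposite order over the same ranges. Elane stood at 7079 (7003 to 7155), 6540, 5226 and 2506 CPM (2399 to 2617), and Ms4a3 at 1088, 873, 712 and 270. Nkg7, a granule membrane gene, went from 612 to 116 CPM, Gfi1 from 27.9 (23.3 to 33.1) to 4.87 (1.33 to 12.5) and Ctsg from 4378 to 2042. Mpo kept to 5352, 5580 and 4979 CPM over the first 3 ranges and was at 2978 in the highest. Not every gene of the neutrophil list or with a high ratio was so ordered, as Hp stood at 284, 324, 342 and 155 CPM and Slpi at 377, 666, 589 and 625. Ly6c2 had no such order either, at 742, 1009, 1223 and 931 CPM. The highest range was shallower, with a median of 16619 UMIs a cell against 22903 in the lowest, and the part of depth in these values was not tested. Without the 84 cells the genes that rose or fell over the ranges kept their order. Klf4 was then at 6.98 and 150 CPM and Elane at 7443 and 2428 in the lowest and the highest range. Lgals3 moved more, to 3.07 (1.53 to 5.50) in the lowest range and 182 in the highest.

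**Figure D4:**
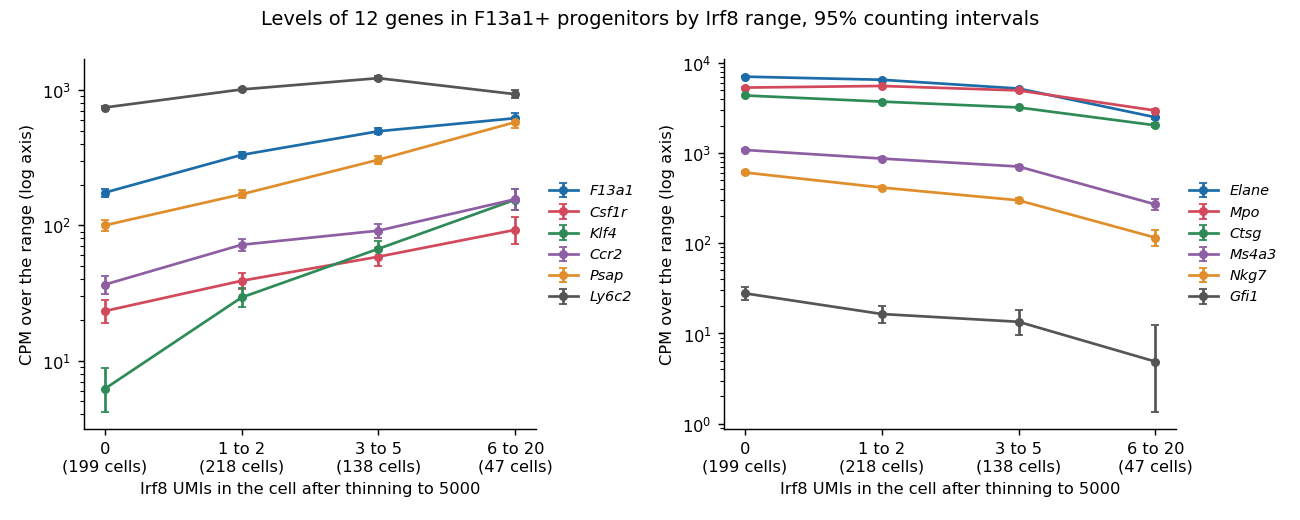
CPM (y axis, log scale) of 12 genes over 4 ranges of Irf8 UMIs (x axis, 602 F13a1+ progenitors thinned to 5000 UMIs, levels from all their UMIs), with 95% Poisson intervals. Klf4 went from 6.18 to 155 CPM and Elane from 7079 to 2506 between the lowest and the highest range.

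Over the 602 thinned cells, which come from 1 library and share its free RNA, Spearman's rho of Irf8 was 0.42 with F13a1, 0.33 with Klf4, -0.24 with Elane, -0.34 with Ms4a3 and -0.36 with Ctsg. Elane had a rho of 0.80 with Prtn3, its neighbour on the chromosome, 0.68 with Mpo and 0.67 with Ms4a3. These are descriptions of 1 library.

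Ranges of F13a1, a gene of the choice, are given as a description. Cells with 1, 2, 3 to 5, 6 to 10 and 11 to 43 UMIs of F13a1 numbered 101, 60, 134, 151 and 159. Irf8 stood at 102 (89.2 to 117), 289, 286, 450 and 584 CPM (560 to 609) over these ranges, and Klf4 at 2.83 in the first and 67.2 in the last. Elane was at 6500 CPM in the first range, 8222 in the second and 4280 in the last, and Nkg7 went from 654 to 237. Over all cells, Mpo and Prtn3 differed little between the last and the first range, at ratios of 0.988 (0.964 to 1.01) and 0.951 (0.930 to 0.972). The cells with a single F13a1 UMI, just inside the limit, had 447 CPM of Ly6c2, and those just outside it, which lacked F13a1 alone, had 153 CPM of Ly6c2 and 61.6 of Irf8. Of the 101 cells with 1 F13a1 UMI, 38 carried genes of another lineage. Without such cells the ratio of the last range to the first was 4.26 for Irf8 (3.68 to 4.97), 2.25 for Ly6c2 (2.08 to 2.43), 0.624 for Elane (0.608 to 0.640) and 0.349 for Nkg7 (0.317 to 0.383). Mpo was then lower in the last range, at 0.862 (0.839 to 0.886), as was Prtn3, at 0.897 (0.875 to 0.920).

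**Figure D5:**
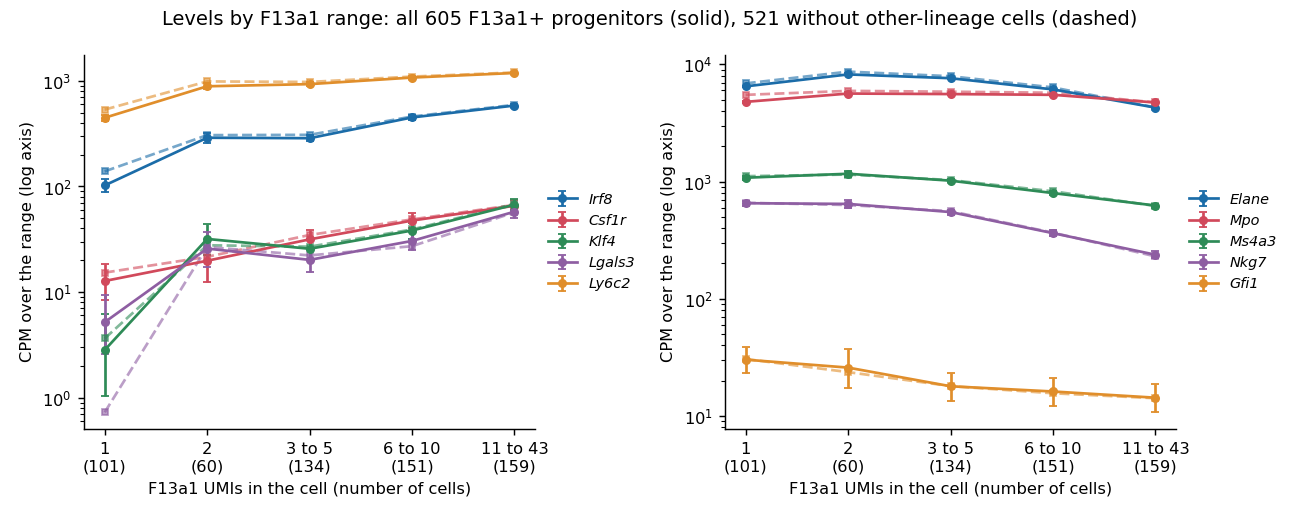
CPM (y axis, log scale) of 10 genes over 5 ranges of F13a1 UMIs (x axis, number of cells in parentheses); solid lines are all 605 F13a1+ progenitors with 95% Poisson intervals, dashed lines the 521 without genes of another lineage, without intervals. Irf8 went from 102 to 584 CPM and Nkg7 from 654 to 237 between the first and the last range.

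At the other limit, the 418 cells with no Cebpe UMI had 453 CPM of Irf8 and 4926 of Elane, the 122 with 1 had 255 and 8603, and the 65 with 2 had 191 and 9213. The 45 cells just outside, at 3 UMIs, had 135 CPM of Irf8 and 10335 of Elane, and the 102 with more had 74.3 and 12434. The values on each side of the Cebpe limit thus followed on from each other, with Ly6c2 at 971 CPM at 2 UMIs and 896 at 3.

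Ly6c2 divided the cells in another way. After thinning, 91 cells had no Ly6c2 UMI, 210 had 1 to 4 and 301 had 5 or more, of which 76 were at the limit of 5. Elane stood at 2147 CPM (2083 to 2212), 5974 and 7545 (7479 to 7611) over these ranges, Slpi at 190, 565 and 638, and Cybb at 12.1 (7.72 to 17.9), 39.2 and 73.9 (67.5 to 80.7). Cells without Ly6c2 had more Cd34, at 217 CPM (197 to 238) against 122 in the highest range, and also more of other lineages, with Prss34 at 2630 CPM against 56.1 and Car1, an erythroid carbonic anhydrase, at 602 against 49.7. Irf8 was 1.82 times as high in the highest range as in cells without Ly6c2 (1.65 to 2.01), and 1.01 times when cells with a single F13a1 UMI were left out. For Cybb these ratios were 6.13 (4.07 to 9.66) and 3.66. With the choice made on thinned cells the Irf8 ratio was 0.857.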

How the data were processed

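One Lineage- cKit+ control library was analysed. According to the methods, sorted cells were prepared with the 10x Chromium 3′ v3.1 kit and counted by the authors with Cell Ranger 6.0.2 on mm10, as the processing notes also list. Another label describes a bulk RNA kit, which the file headers contradict. The deposited values are raw UMI counts per gene and barcode (32285 genes, 8817 barcodes, 167452386 UMIs, 0 repeated barcodes).

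Cells were kept with more than 1000 and fewer than 50000 UMIs, more than 1000 and fewer than 6500 genes and under 7% mitochondrial UMIs. Counts were summed over the cells of a group and given in each 1000000 UMIs (CPM). Ratios have exact conditional binomial, CPM exact Poisson and shares exact Clopper-Pearson 95% intervals, which cover counting error only. A gene past 2-fold had a ratio of 2 or more, or 0.5 or less, among genes with 50 or more UMIs in both groups together, without the 9 genes of the choice. A count of 0 was given the limit of 3 counts. Shares of cells were taken after thinning without replacement to 5000 UMIs. Scrublet, run through scanpy 1.11.5 with an expected rate of 6%, gave 268 doublet calls (31 in F13a1+ progenitors), which were kept. The cells, lists and ranges were chosen with earlier results of these data known, and the Irf8 ranges and the limits for genes of another lineage after the values were seen. By size, genes at 50 CPM or more were named with the 15 highest and 10 lowest ratios over the other cells and the 10 highest and lowest over each reference (1 CPM added). All listed genes could be named. The ratios and intervals were tested on simulated data. Alternatives were doublets removed, a stricter cell filter, other limits of the choice, thinned cells, 1 depth window, other scalings and other gene limits. Scripts used Python 3.11.15, numpy 2.4.6 and scipy 1.17.1.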

Additional observations from a re-analysis of the deposited data

Results flagged for a closer look

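Of the 1172 barcodes outside the cell filter, which the comparisons do not use, 33 met the gene conditions of the F13a1+ progenitors, a share of 2.82% (1.95 to 3.93). They are given because they lie outside the cells compared. Their median was 7175 UMIs, and 22 of them had failed on the share of mitochondrial UMIs. They held 356 CPM of Ly6c2 (315 to 401), 2208 of Elane (2104 to 2316) and 181 of Irf8 (152 to 213), each below the level inside the filter.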

How the results depend on the processing

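With 1 library, intervals cover counting error only, and differences between animals or libraries could not be measured. No paired analysis was possible because there was 1 sample. Of 2143 single values compared under alternatives, 1555 stayed within the 95% counting interval of the value reported, and of 1237 ratios past 2-fold, 1227 kept their direction. The cause of the changes below was not tested, except where fewer cells or more genes entered by construction.

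The choice of cells mattered most when it was made on thinned cells. It then took 1012 cells, of which 387 were among the 605 (64.0% of these). Genes 2-fold or more higher numbered 354 against the other cells, 2536 against later monocyte cells, 710 against Mpo progenitors and 58 against Flt3 Csf1r cells, and those at 0.5 times or less 1241 and 233 against the later monocyte and Flt3 Csf1r cells. The ratio to the other cells turned for Ighg2c (2.39), Lgals3 (1.49) and S100a4 (1.67), and that to Flt3 Csf1r cells for Cpa3 (0.914). Thinned shares were 89.1% for Ly6c2, 85.7% for Irf8, 28.0% for Csf1r, 28.8% for Klf4 and 88.6% for Elane. The ratios of the highest Ly6c2 range to cells without Ly6c2 were 0.857 for Irf8, 1.32 for Csf1r and 5.22 for Elane.

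With 2 or more F13a1 UMIs, 74 genes were 2-fold or more higher than in Flt3 Csf1r cells, the shares were 92.2% for Ly6c2, 74.3% for Irf8 and 94.6% for Elane, and the ratios by Ly6c2 were 1.01 for Irf8, 3.58 for Klf4, 1.12 for Csf1r, 4.12 for Elane and 3.66 for Cybb. With both Ms4a6c and Ly86, 64 genes were higher than in Flt3 Csf1r cells and the ratio of S100a8 to these turned (0.953). The shares were then 91.6%, 77.7%, 22.5%, 18.5% and 93.9% for Ly6c2, Irf8, Csf1r, Klf4 and Elane, and the ratios by Ly6c2 were 1.04 for Irf8, 1.17 for Csf1r, 3.37 for Elane and 3.91 for Cybb.

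Without doublet calls the Elane ratio by Ly6c2 was 3.33. In cells of 10000 to 30000 UMIs it was 3.29 and that of Irf8 1.63, and 36 genes were 2-fold or more higher than in the other cells. Leaving out the cells with genes of another lineage, an alternative chosen after seeing the data, gave 62 genes higher than in Flt3 Csf1r cells. The shares were then 88.2% for Ly6c2, 71.2% for Irf8 and 94.02% for Elane, and the ratios by Ly6c2 were 1.38 for Irf8 and 2.71 for Elane. Prss34 turned against the later monocyte cells (0.337), and Prss34 (0.0561), Mcpt8 (0.378), Cpa3 (0.696) and S100a8 (0.417) against Flt3 Csf1r cells. The removal used Prss34, Cpa3 and S100a8 and spared the references, so these values are set in whole or in part by it.

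With a limit of 10 UMIs a gene, genes higher and lower numbered 285 and 3700 against the other cells, 2625 and 1215 against later monocyte cells, 904 and 1500 against Mpo progenitors, and 315 and 827 against Flt3 Csf1r cells. With all genes that had a UMI these were 768 and 7490, 6267 and 1431, 3612 and 2605, and 1553 and 2516, and the median log2 ratio of all genes shifted by -0.20 against the other cells and 0.38 against the later monocyte cells. No other scaling moved a count by over 1.5 times. In 22 cases the reference had no UMI and no ratio was compared.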
